A study of Mus musculus with 407 samples.

Results

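The 8 genes Scx, Mkx, Tnmd, Thbs4, Comp, Chad, Cilp and Tnc were chosen by name as genes of tendon and of the junction between muscle and tendon, out of the 24458 gene symbols in the deposited tables, and were described across 4 muscles and 6 ages. All 8 were present in each library's table and passed the filter on low counts in each of the 8 combinations of muscle and sex. The RNA came from diaphragm, gastrocnemius, soleus and tibialis anterior muscle of male and female C57BL/6J mice, bought from a breeder and kept untreated for about 12 weeks before collection. The published methods do not say how much tendon was left on the muscles. Mice were 6, 12, 18, 21, 24 or 27 months old, which made 48 groups of 6 to 10 libraries; the 6-month groups, against which the older ages were compared, held 8 libraries each and the 27-month groups 10. Tissues of one age group were taken on one day according to the labels, so that age and collection day cannot be told apart. No group carried a transgene or a mutation. Which muscles belong to the same mouse is not part of the labels.

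Tendon is made by tenocytes, fibroblast-like cells that lay down aligned type I collagen together with a set of glycoproteins and small proteoglycans. Muscle fibres hand their force to that matrix at the myotendinous junction, where integrins and the dystrophin complex in the fibre membrane bind laminin and thrombospondins outside. Scleraxis (Scx), a basic helix-loop-helix factor that binds the E-box, and Mohawk (Mkx), a homeobox factor, drive the tenocyte program, and tenomodulin (Tnmd), a membrane protein of mature tenocytes, is a target of scleraxis. Thrombospondin 4 (Thbs4), cartilage oligomeric matrix protein (Comp, a thrombospondin too), chondroadherin (Chad, a leucine-rich repeat protein), cartilage intermediate layer protein (Cilp) and tenascin C (Tnc) are secreted into the matrix; Thbs4, Comp and Tnc are also made outside tendon, Comp, Chad and Cilp being well known from cartilage.

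Promoter stretches are shown here for 4 of the genes, chosen by their age results and by availability. Mkx fell with age in 4 combinations of muscle and sex, but the promoter set used here held no stretch for Mkx, Scx or Comp. The stretches shown are those of Chad, Tnmd and Thbs4, which fell in 6 combinations each, and of Cilp, which rose in 3. Each is the RefSeq sequence upstream of the gene's start on GRCm38.p6, written 5′ to 3′ on the gene's strand, with every E-box (CANNTG, which reads the same on both strands) in capitals. The stretches lie at chr11:94564797-94565046 (Chad, plus strand), chrX:133850758-133850979 (Tnmd, plus strand), chr13:92794819-92795068 (Thbs4, minus strand) and chr9:65264930-65265179 (Cilp, plus strand), and none overlaps an annotated exon of GENCODE M21.
Chad: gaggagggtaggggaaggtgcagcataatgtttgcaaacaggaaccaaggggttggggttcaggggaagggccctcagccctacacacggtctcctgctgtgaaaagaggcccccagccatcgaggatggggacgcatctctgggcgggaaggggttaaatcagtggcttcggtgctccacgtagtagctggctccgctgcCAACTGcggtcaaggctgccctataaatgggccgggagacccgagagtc
Tnmd: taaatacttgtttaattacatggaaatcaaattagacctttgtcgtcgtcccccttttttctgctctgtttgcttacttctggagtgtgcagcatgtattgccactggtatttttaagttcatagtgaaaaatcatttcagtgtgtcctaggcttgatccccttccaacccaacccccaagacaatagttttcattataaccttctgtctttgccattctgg
Thbs4: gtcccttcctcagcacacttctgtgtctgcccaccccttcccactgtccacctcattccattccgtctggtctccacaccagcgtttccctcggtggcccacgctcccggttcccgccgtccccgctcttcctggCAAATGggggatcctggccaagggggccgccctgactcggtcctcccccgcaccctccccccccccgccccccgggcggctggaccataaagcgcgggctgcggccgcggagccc
Cilp: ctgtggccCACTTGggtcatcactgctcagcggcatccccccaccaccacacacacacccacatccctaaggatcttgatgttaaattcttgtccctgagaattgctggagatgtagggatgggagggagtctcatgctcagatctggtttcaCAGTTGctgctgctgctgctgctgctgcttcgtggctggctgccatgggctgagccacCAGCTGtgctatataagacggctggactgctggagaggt

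Within these letters, the Cilp stretch of 250 bases held 3 E-boxes, the Chad and Thbs4 stretches of 250 bases held 1 each, and the shorter Tnmd stretch of 222 bases held 0. An E-box is common: 66.2% of the 32851 promoter stretches of 250 bases held at least 1, with a median of 1. The form CAGATG, searched on both strands, stood in 14.4% of all stretches and in 0 of the 4 shown. These matches describe the letters only, and a tie between them and the direction of the age change was not tested.

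Depth ranged from 38583802 to 300089909 counts per library, with a median of 72766895. Levels are given as CPM, a gene's share of its library's counts after TMM scaling over all libraries. In 8 libraries the log2 counts followed the GC content of the transcripts by more than 0.5 per 10 percentage points of GC, against the other libraries of the muscle. Of these, 6 were diaphragm libraries with a negative trend (−0.82 to −2.10) and 2 were gastrocnemius libraries with a positive one (0.59 and 0.68). Separately, 3 libraries held over 1000 CPM of liver markers, of which 1 also had a GC trend. Diaphragm and gastrocnemius results are therefore also given without the 8 libraries where that changed a call.

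Scx has the transcript richest in GC of the 8, at 63.6%. In the 6 diaphragm libraries with the negative trend it stood at 0.0262 to 0.0722 CPM, against a diaphragm median of 1.28 CPM. The plot of Scx against the GC trend shows these libraries apart from the rest. A further low Scx value, 0.0886 CPM, came from a male soleus library of 27 months that had no such trend (−0.14). Scx (chr15:76457452-76459458, plus strand) lies inside Bop1 on the opposite strand, and Chad (chr11:94565047-94569127, plus strand) inside Acsf2 on the opposite strand. The libraries were strand-specific, but no source used here says whether the counting used strand, so reads of these gene pairs cannot be fully told apart.

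**Figure D1:**
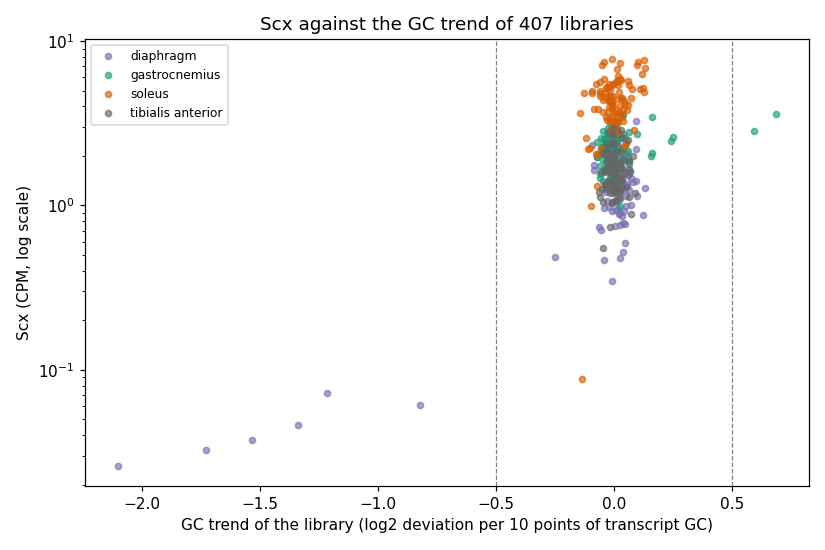
Scx level (CPM, log axis) against each library's GC trend (log2 per 10 percentage points of transcript GC), 1 point per library coloured by muscle, with dashed lines at a trend of −0.5 and 0.5. The 6 diaphragm libraries at a trend of −0.82 or below have Scx at 0.0262 to 0.0722 CPM.

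The levels of most of the 8 genes were highest in soleus. By the median over both sexes and all ages, this muscle had the highest level of 6 of the 8 (Scx, Mkx, Tnmd, Thbs4, Comp and Chad). Gastrocnemius had that of Tnc and diaphragm that of Cilp. In males this order did not hold at every age for Chad and Thbs4. Male Chad was lower in soleus than in gastrocnemius at 6 months (51.8 against 60.3 CPM), 21 and 27 months, and higher at 12, 18 and 24 months. Male Thbs4 was lower in soleus than in tibialis anterior at 6 months (183 against 185 CPM) and 21 months, and higher at the other ages. Tnmd spanned the widest range: its median was 2.90 CPM in diaphragm, 4.07 CPM in tibialis anterior, 5.81 CPM in gastrocnemius and 14.6 CPM in soleus. Comp reached 6.97 CPM in diaphragm, 7.12 CPM in tibialis anterior, 17.3 CPM in gastrocnemius and 26.6 CPM in soleus, and Chad 13.3, 17.3, 32.9 and 47.3 CPM in the same order. The level of Thbs4 varied least, from 121 CPM in diaphragm to 187 CPM in soleus.

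Tests of the muscle pairs averaged the 12 groups of a muscle with equal weight in edgeR's quasi-likelihood test. Of 48 contrasts (6 pairs, 8 genes), 30 passed an adjusted p of 0.05 and a fold change of 1.5. Soleus exceeded diaphragm for 6 of the 8 genes (38.8% of all genes differed between these muscles), by 2.25 ± 0.08 (SE) on the log2 scale for Tnmd (adjusted p = 3.5e-93), 1.93 ± 0.09 for Comp and 1.75 ± 0.08 for Scx. Soleus exceeded tibialis anterior for 6 of the 8 as well (32.3% of genes), Cilp among them and Thbs4 not, its difference of 0.46 ± 0.05 lying under the fold limit. Against gastrocnemius, soleus was higher for Scx, Mkx, Tnmd, Comp and Cilp and lower for Tnc (30.3% of genes). Gastrocnemius exceeded diaphragm for Scx, Tnmd, Comp, Chad and Tnc, with Cilp lower by 0.86 ± 0.06 (51.8% of genes). Tibialis anterior fell below gastrocnemius for 4 genes, Mkx, Comp, Chad and Tnc (16.2% of genes), and differed from diaphragm past both limits for Tnc (0.68 ± 0.07, but 0.58 and under the fold limit with DESeq2's scaling) and Cilp (−1.08 ± 0.06), 2 of 8 against 53.8% of genes. A share of 2 of 8 lies below that background, and 6 of 8 above that of the soleus pairs.

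Some neighbours in these orders could not be separated. Tibialis anterior and diaphragm differed by −0.02 ± 0.09 for Comp (adjusted p = 0.86, edgeR) and by 0.02 ± 0.11 for Chad (adjusted p = 0.86), and the sign for Chad turned with another scaling. Tibialis anterior and gastrocnemius differed by 0.07 ± 0.05 for Thbs4 (adjusted p = 0.25). Soleus and diaphragm differed in Cilp by −0.18 ± 0.06, with an adjusted p of 0.0038 but under the fold limit.

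Divided by transcript length, Thbs4 and Cilp were the most abundant of the 8 in each muscle. In soleus the median levels were 58.5 CPM per kb for Thbs4, 35.6 for Cilp, 28.2 for Chad, 11.0 for Comp, 10.8 for Tnmd, 4.15 for Scx, 1.57 for Mkx and 1.21 CPM per kb for Tnc. In diaphragm Cilp (39.4 CPM per kb) and Thbs4 (37.9) stood side by side, Chad was at 7.91, Comp at 2.89 and Tnmd at 2.14. The 2 transcription factors were thus low everywhere, Scx at 1.24 to 4.15 and Mkx at 0.457 to 1.57 CPM per kb.

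**Figure D2:**
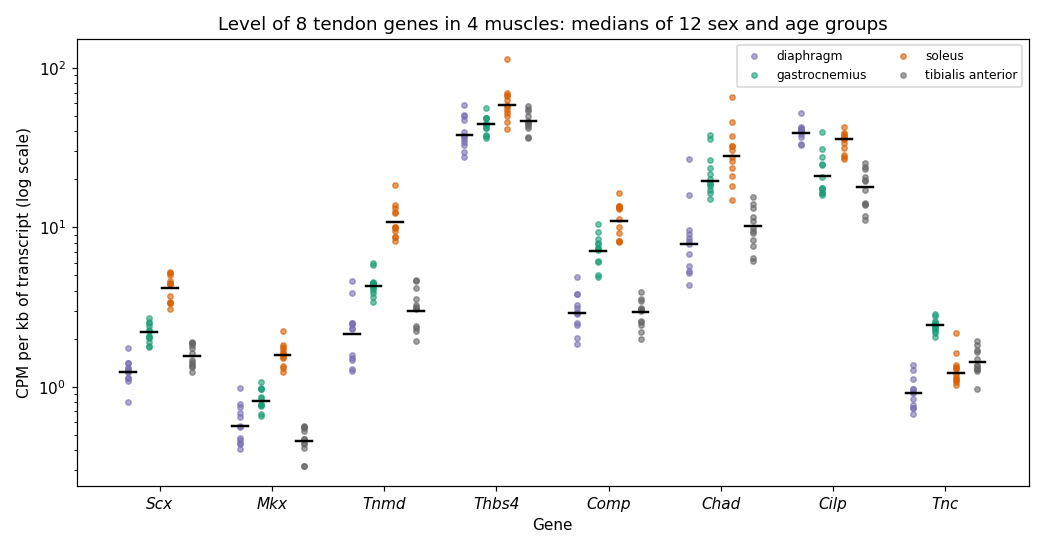
Level of each of the 8 genes per kb of transcript (CPM per kb, log axis) by muscle, where each point is the median of 1 of the 12 sex and age groups and the black bar the median of all libraries of the muscle. Soleus has the highest bar for Scx, Mkx, Tnmd, Thbs4, Comp and Chad, gastrocnemius for Tnc and diaphragm for Cilp.

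The tendon genes fell with age more often than they rose. Between 6 months and any older age, 25 of the 64 combinations of gene, muscle and sex passed an adjusted p of 0.05 and a fold change of 1.5, 23 of them lower and 2 higher; the 2 higher ones were Cilp in the female gastrocnemius and tibialis anterior. A slope of expression on log2 age, fitted over the 6 ages, passed an adjusted p of 0.05 in 30 of 64, with 26 falling and 4 rising. Of the slopes of all genes in the 8 combinations of muscle and sex, 9.75% fell and 10.1% rose. The share of all genes that passed at any older age ran from 2.85% (male soleus) to 11.0% (male diaphragm). Chad, Thbs4 and Tnmd fell in 6 of the 8 combinations each, Mkx in 4, Comp in 2 and Tnc in 2, while Cilp rose in 3 and Scx in 1. The slope is the change in log2 expression for each doubling of age. In bulk muscle, fewer tendon cells and less RNA per cell cannot be told apart.

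No combination passed at 12 months by edgeR, limma-voom or DESeq2, although 12 of 64 had an unadjusted p under 0.05; 10 passed at 18, 15 at 21, 17 at 24 and 18 at 27 months. Of all genes over the 8 fits, 0.127% passed at 12 months, 1.20% at 18, 3.53% at 21, 3.55% at 24 and 4.18% at 27 months. Groups held 6 to 8 libraries from 12 to 21 months and 9 or 10 at 24 and 27 months, so the counts at the last 2 ages come from larger groups. Without the 6-month libraries, a choice made after seeing the data, 8 of the 64 slopes still passed: Chad in the female gastrocnemius, soleus and tibialis anterior and in the male gastrocnemius, Cilp in the gastrocnemius of both sexes, Tnmd in the female soleus and Thbs4 in the female tibialis anterior. Calls over all genes became fewer in each muscle and sex as well. By muscle and sex, 0.0376% to 11.4% of genes fell without the 6-month libraries, and 0.1% to 12.6% rose. The 30 calls rest in large part on the 6-month groups, though leaving these out also shortens the range of ages.

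By muscle and sex, the slopes of the 8 genes read as follows against all genes tested. In the female diaphragm 4 fell, where 3.72% of genes fell and 1.71% rose, and the median slope was −0.40 for the 8 and 0.016 for all genes. Without the libraries with a GC trend 7 fell there, all but Cilp, and 7.74% of genes fell and 5.54% rose. In the female soleus 5 fell (15.1% of genes fell and 14.9% rose), with medians of −0.31 and −0.012. In the female gastrocnemius 4 fell and 2 rose (16.1% and 16.6%), with medians of −0.11 and 0.0076, and in the female tibialis anterior 3 fell and 1 rose (12.7% and 15.1%), with medians of −0.13 and 0.0013. In the male gastrocnemius 6 fell and 1 rose (14.6% and 13.3%), with medians of −0.15 and −0.0016. In the male tibialis anterior 4 fell (8.92% fell and 11.6% rose), with medians of −0.14 and 0.0053.

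The male diaphragm and the male soleus gave 0 calls in either direction. In the male diaphragm 5.40% of genes fell and 5.35% rose, and in the male soleus 2.16% fell and 3.54% rose. These shares moved with the processing while the count of the 8 in the male diaphragm stayed at 0: there 10.3% of genes fell without the libraries with liver markers, and 1.67% fell and 1.34% rose with the run of sample numbers as a term. In both, 2 of the 8 had an unadjusted p under 0.05; limma-voom and DESeq2 called 0 in the male diaphragm and 1 each in the male soleus, where voom called Chad and DESeq2 called Tnmd. The medians of the 8 were −0.021 and −0.0037 there, against 0.015 and 0.0049 for all genes.

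By the test of any older age, 6 of the 8 passed in the female diaphragm (2.95% of genes). DESeq2 called 6 there too, but limma-voom called 3 (Mkx, Thbs4 and Tnmd), and 7 passed without the libraries with a GC trend (5.20% of genes). In the other female muscles 4 passed in the female gastrocnemius (9.44%), 4 in the female soleus (8.52%) and 3 in the female tibialis anterior (9.25%). In males 3 passed in the gastrocnemius (8.06%), 4 in the tibialis anterior (8.53%), 1 in the soleus (2.85%) and 0 in the diaphragm (11.0%). That 1 was Chad at 27 months, and limma-voom and DESeq2 called Tnmd there as well. In the male diaphragm 2 genes had an unadjusted p under 0.05 at some age, and limma-voom and DESeq2 called 0.

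**Figure D3:**
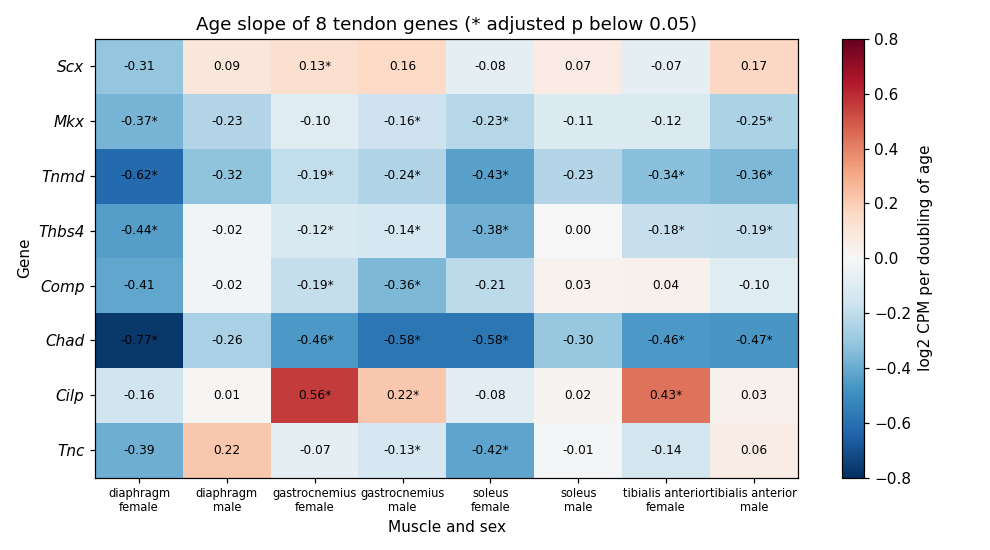
Slope of log2 expression per doubling of age for each gene (rows) in each muscle and sex (columns), printed in each cell and coloured from falling (blue) to rising (red), with a star where the adjusted p was below 0.05 (edgeR). The stars mark 26 falling and 4 rising slopes, with Chad, Tnmd and Thbs4 falling in 6 of 8 columns and Cilp rising in 3.

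Chad, the chondroadherin that binds collagen and integrin, had the lowest slope of the 8 genes in each of the 6 combinations in which it fell. In the female soleus it ranged from 73.6 to 134.6 CPM at 6 months (median 109.8) and from 28.9 to 63.8 CPM at 27 months (median 39.6). Every old library lay below every young one. The change at 27 months was −1.38 ± 0.21 on the log2 scale (SE, adjusted p = 4.4e-06, edgeR), and the slope −0.58 ± 0.08 (adjusted p = 5.4e-07). In the male gastrocnemius Chad ranged from 47.7 to 71.5 CPM at 6 months (median 60.3) and from 7.21 to 35.8 CPM at 27 months (median 25.5), again with no overlap. Its slope there was −0.58 ± 0.07 (adjusted p = 4.8e-08).

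In the female gastrocnemius the median of Chad went from 63.8 CPM at 6 months through 44.3, 31.4, 34.0 and 31.9 to 30.4 CPM at 27 months. The step came by 18 months, after which the medians stayed close together. The slope was −0.46 ± 0.06 (adjusted p = 4.5e-08), and the 6- and 27-month groups overlapped only through 1 old library of 60.0 CPM that carried the positive GC trend. In tibialis anterior Chad ranged from 16.6 to 44.5 CPM in young and from 4.65 to 24.8 CPM in old females, and from 19.9 to 39.2 CPM in young and from 2.88 to 24.7 CPM in old males. Those groups overlapped. The slopes were −0.46 ± 0.10 in females (adjusted p = 0.00047) and −0.47 ± 0.10 in males (adjusted p = 0.00082).

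Diaphragm Chad was the most scattered. Young females ranged from 1.09 to 103 CPM with a median of 45.0, and the medians at the older ages lay between 7.28 and 15.3 CPM. The slope of −0.77 ± 0.20 (adjusted p = 0.012) passed in edgeR and missed in limma-voom (adjusted p = 0.052), and without replicate 5 of 6 months its adjusted p was 0.053. In males the slope was −0.26 ± 0.27 (adjusted p = 0.56). In the male soleus Chad had a median of 51.8 CPM at 6 months and 24.9 CPM at 27 months, a change of −1.02 ± 0.23 (adjusted p = 0.0064), whereas the slope of −0.30 ± 0.11 did not pass (adjusted p = 0.089).

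Tnmd, the tenocyte membrane protein, fell in all 4 female muscles and in 2 male ones. Levels in the female soleus ranged from 14.6 to 33.8 CPM at 6 months (median 25.1) and from 9.66 to 17.2 CPM at 27 months (median 13.7). The groups overlapped slightly. The slope was −0.43 ± 0.07 (adjusted p = 5.1e-06), and each age from 18 months on passed, by −0.78 to −0.89. In the female diaphragm the median was 6.27 CPM at 6 months, 3.13 at 12 months and 1.69 to 2.04 CPM from 18 months on. A single 27-month library of 10.5 CPM, one with the negative GC trend, stood above all the others of its age, which reached 3.48 CPM. The slope of −0.62 ± 0.14 (adjusted p = 0.0033) was −0.79 ± 0.13 without the libraries with a GC trend.

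Limb muscles of males showed the lowest Tnmd in the oldest mice. In the male gastrocnemius it ranged from 6.02 to 8.85 CPM at 6 months and from 1.63 to 6.29 CPM at 27 months, and the change at 27 months was −0.78 ± 0.15 (adjusted p = 6.9e-05). In the male tibialis anterior it ranged from 3.90 to 10.2 CPM and from 0.682 to 5.39 CPM, a change of −1.16 ± 0.26 (adjusted p = 0.00098). The slopes were −0.24 ± 0.06 and −0.36 ± 0.11 (adjusted p = 0.0032 and 0.012). In females the slopes were −0.19 ± 0.05 in gastrocnemius (adjusted p = 0.0027) and −0.34 ± 0.09 in tibialis anterior (adjusted p = 0.0029). The call at 18 months in the female gastrocnemius, −0.60 ± 0.13, lay close to the fold limit and was lost without any one of 3 libraries (18 months replicate 1, 6 months replicates 3 and 6).

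Thbs4, a thrombospondin that anchors the junction, fell in the 6 combinations in which Tnmd and Chad fell, with a smaller slope than either in each. The female soleus ranged from 292 to 436 CPM at 6 months (median 363) and from 142 to 321 CPM at 27 months (median 175). The slope was −0.38 ± 0.07 (adjusted p = 1.9e-05), and each age from 18 months on passed. In the male soleus the medians were 183 CPM and 168 CPM, and the slope 0.00 ± 0.08 (adjusted p = 0.99). Medians in the female diaphragm were 187 CPM at 6 months, 162 at 12 months and 88.0 to 115 CPM later, with a slope of −0.44 ± 0.08 (adjusted p = 0.00047). The male diaphragm went from 159 to 152 CPM with a slope of −0.02 ± 0.09 (adjusted p = 0.91).

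The other Thbs4 calls were smaller. In tibialis anterior the slope was −0.18 ± 0.05 in females (adjusted p = 0.0092) and −0.19 ± 0.06 in males (adjusted p = 0.025), and in males the change at 27 months was −0.68 ± 0.14 (adjusted p = 0.00045). In gastrocnemius it was −0.12 ± 0.05 in females (adjusted p = 0.047) and −0.14 ± 0.05 in males (adjusted p = 0.023). The female gastrocnemius call was fragile: it was lost without any one of 24 libraries and with another scaling (adjusted p = 0.051), but its slope was −0.16 ± 0.04 (adjusted p = 0.0016) without the old library with a GC trend, which held 286 CPM against 122 to 159 CPM in the others. Without that library the 6- and 27-month groups did not overlap. The calls in the male gastrocnemius (without replicate 0 or replicate 2 of 6 months, adjusted p of 0.053 to 0.065) and in the male tibialis anterior (without replicate 2 of 6 months, adjusted p = 0.071) rested on single libraries as well.

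**Figure D4:**
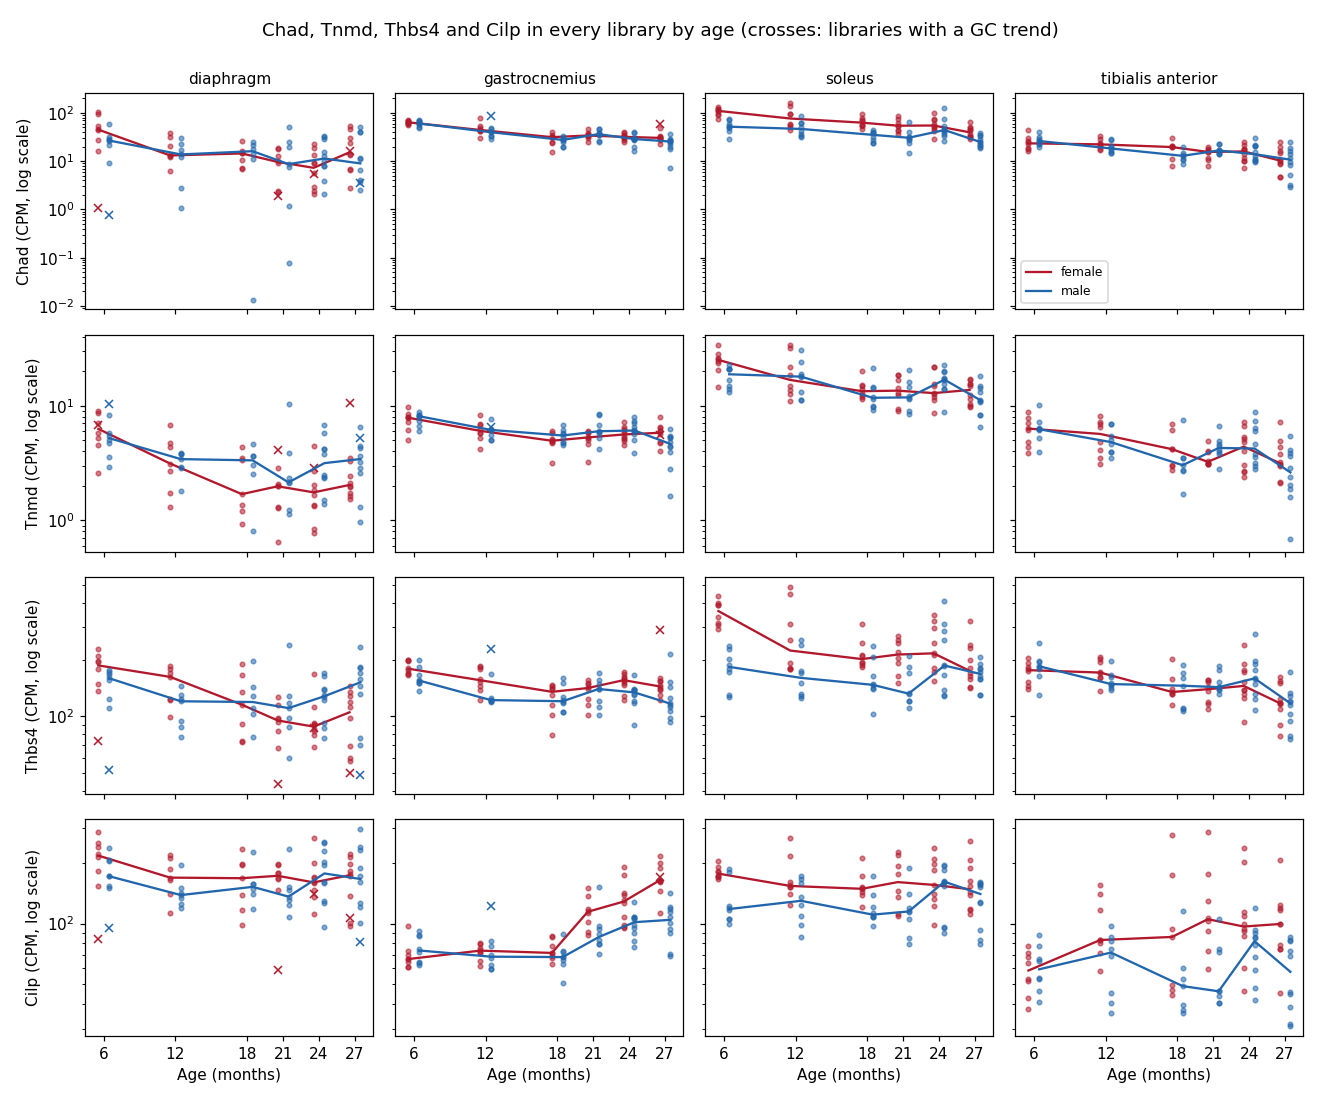
Levels of Chad, Tnmd, Thbs4 and Cilp (CPM, log axis) by age in months, 1 point per library, by muscle (panels) and sex (colours), with group medians joined by lines and crosses for libraries with a GC trend. Chad in the female soleus falls from a median of 109.8 to 39.6 CPM, and Cilp in the female gastrocnemius rises from 66.6 to 164 CPM.

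Comp, the pentameric matrix thrombospondin, fell in the gastrocnemius of both sexes. In males it ranged from 17.7 to 31.6 CPM at 6 months (median 22.7) and from 6.52 to 21.0 CPM at 27 months (median 11.9), with a slope of −0.36 ± 0.07 (adjusted p = 0.00018). In females the medians were 25.4 and 17.9 CPM, and the slope −0.19 ± 0.07 (adjusted p = 0.021). In tibialis anterior no slope passed, with values of 0.04 ± 0.10 in females and −0.10 ± 0.11 in males (adjusted p = 0.83 and 0.60). For the female diaphragm 24 months alone passed, by −1.56 ± 0.44, a call lost without any one of 4 libraries (6 months replicates 5 and 6, 24 months replicates 3 and 6). Without the libraries with a GC trend Comp passed there at 3 ages, and by limma-voom with all libraries at 0.

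Tnc, the tenascin found at the junction and in healing tissue, fell in the female soleus and the male gastrocnemius. In the female soleus it ranged from 8.80 to 24.0 CPM at 6 months (median 15.5) and from 5.29 to 14.2 CPM at 27 months (median 8.59). The slope was −0.42 ± 0.08 (adjusted p = 3.4e-05), and the median of 9.30 CPM at 12 months already lay near the later ones. The male gastrocnemius slope was −0.13 ± 0.04 (adjusted p = 0.02). Tnc passed in the female diaphragm at 21 and 24 months, by −1.37 ± 0.34 and −1.27 ± 0.32, but not at 27 months, and the call was lost without replicate 5 of 6 months. Without the libraries with a GC trend Tnc passed there at 3 ages, and by limma-voom with all libraries at 0. Young females ranged from 4.00 to 37.5 CPM there.

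The 2 transcription factors parted from each other. Mkx fell in 4 combinations, with slopes of −0.37 ± 0.09 in the female diaphragm (adjusted p = 0.0092), −0.23 ± 0.06 in the female soleus (adjusted p = 0.0025), −0.16 ± 0.04 in the male gastrocnemius (adjusted p = 0.0042) and −0.25 ± 0.09 in the male tibialis anterior (adjusted p = 0.033). Mkx ranged in the female soleus from 6.84 to 10.8 CPM at 6 months and from 4.85 to 8.19 CPM at 27 months. The male tibialis anterior call was lost without replicate 2, 3 or 5 of 6 months (adjusted p of 0.051 to 0.077), and the female diaphragm call without replicate 6 of 6 months (adjusted p = 0.061).

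Scx fell in none of the 8 combinations with all libraries included. It rose in the female gastrocnemius, from 1.46 to 2.68 CPM at 6 months (median 2.15) to 2.41 to 3.23 CPM at 27 months (median 2.79), with a slope of 0.13 ± 0.05 (adjusted p = 0.049). This call did not survive leaving out any one of 35 of the 52 libraries. The male gastrocnemius slope was 0.16 ± 0.07 (adjusted p = 0.062). Without the libraries with a GC trend, the male gastrocnemius passed (0.18 ± 0.06, adjusted p = 0.022), the female one did not (0.12 ± 0.05, adjusted p = 0.053), and Scx fell in the female diaphragm (−0.31 ± 0.07, adjusted p = 0.0024, against −0.31 ± 0.17 and 0.34 with all libraries). Tnc (−0.46 ± 0.13, adjusted p = 0.015) and Comp (−0.45 ± 0.14, adjusted p = 0.029) also passed in the female diaphragm without those libraries.

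Cilp, a matrix protein of cartilage and fibroblasts, went the other way. In the female gastrocnemius it ranged from 60.9 to 97.3 CPM at 6 months (median 66.6) and from 113 to 218 CPM at 27 months (median 164). Every old library lay above every young one. The change at 27 months was 1.28 ± 0.12 (adjusted p = 1.4e-11) and the slope 0.56 ± 0.07 (adjusted p = 9.6e-09). The medians of 73.4 and 71.5 CPM at 12 and 18 months were close to the young level, and those of 115 and 129 CPM at 21 and 24 months were not. In the male gastrocnemius the medians were 73.5 CPM at 6 months and 104 CPM at 27 months, with a slope of 0.22 ± 0.06 (adjusted p = 0.004) and no age past the fold limit. Of 7 adipocyte markers, the slopes of 4 rose in the female gastrocnemius (16.6% of all genes) and 0 in the male one (13.3%). Their part in the rise of Cilp was not tested.

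In the female tibialis anterior Cilp ranged from 37.6 to 77.3 CPM at 6 months (median 58.4) and from 45.3 to 207 CPM at 27 months (median 99.6), and the slope was 0.43 ± 0.13 (adjusted p = 0.012). Of the 10 old libraries, 7 lay above the highest young one, and the other 3 within the young range. In the same muscle the slopes of 11 of 12 liver markers and 5 of 7 adipocyte markers rose. The summed liver markers went from 1.49 to 22.4 CPM (median 12.7) at 6 months to 4.34 to 629 CPM (median 74.3) at 27 months, and the median of the summed adipocyte markers from 77.6 to 78.6 CPM. Their part in the rise of Cilp was not tested. In the male tibialis anterior the slope was 0.03 ± 0.10 (adjusted p = 0.84). In soleus and diaphragm the 4 slopes lay between −0.16 and 0.02 and none passed (adjusted p of 0.25 to 0.95).

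Whether the change from 6 to 27 months differed between muscles was tested in 1 fit over all libraries. It passed for 1 of the 8 genes, Cilp (adjusted p = 4.2e-05, edgeR), against 17.5% of all genes. The mean change of the 2 sexes was 0.87 in gastrocnemius, 0.41 in tibialis anterior, −0.09 in soleus and −0.19 in diaphragm on the log2 scale. For the other 7 genes a difference between muscles in the age change was not shown.

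Averaged over the 6 ages, 3 of 32 contrasts passed both limits: Chad in soleus, lower in males by −0.71 ± 0.16 (adjusted p = 7e-05), Comp in soleus, by −0.60 ± 0.12 (adjusted p = 2.4e-05), and Cilp in tibialis anterior, by −0.67 ± 0.09 (adjusted p = 4e-12). Of all genes, 6.06% differed between the sexes in soleus, 5.48% in tibialis anterior, 8.03% in gastrocnemius and 6.88% in diaphragm. By adjusted p without the fold limit, 6 of the 8 were lower in male soleus, where 16.2% of all genes were, with Scx at −0.58 ± 0.11, Thbs4 at −0.50 ± 0.07, Mkx at −0.45 ± 0.08 and Cilp at −0.36 ± 0.09. Tnmd (−0.14 ± 0.10) and Tnc (−0.23 ± 0.10) did not pass there. In diaphragm Tnmd was higher in males by 0.30 ± 0.11 (adjusted p = 0.025), under the fold limit. Also under it, Mkx was lower in males in gastrocnemius (−0.26 ± 0.08, adjusted p = 0.006) and tibialis anterior (−0.25 ± 0.08, adjusted p = 0.016) and Cilp in gastrocnemius (−0.22 ± 0.09, adjusted p = 0.028), where 18.3% of genes in gastrocnemius and 13.4% in tibialis anterior were lower by this rule.

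Of the falling slopes 16 were called in females and 10 in males, but a difference between the sexes was not shown. Of all genes, 3.72% fell in the female and 5.40% in the male diaphragm, and 16.1% and 14.6% in gastrocnemius. In soleus 15.1% and 2.16% fell, and in tibialis anterior 12.7% and 8.92%. The test of whether the change from 6 to 27 months differed between the sexes passed in 0 of 32 contrasts by edgeR and by limma-voom, with 5 of 32 at an unadjusted p under 0.05; it passed for 2.53% of genes in soleus, 0.876% in diaphragm, 0.364% in tibialis anterior and 0.108% in gastrocnemius. The lowest adjusted p belonged to Thbs4 in soleus, whose change was 0.75 ± 0.25 higher in males (adjusted p = 0.075), and in diaphragm (0.81 ± 0.25, adjusted p = 0.079). Tnc in diaphragm had the largest of the 5 differences, 1.07 ± 0.34 higher in males (adjusted p = 0.095). Without the libraries with a GC trend, Thbs4 in soleus passed (adjusted p = 0.031). Cilp differed by −0.83 ± 0.29 in gastrocnemius and −0.91 ± 0.29 in tibialis anterior, with adjusted p of 0.48 and 0.24.

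The levels of the genes were also compared from library to library within an age. After subtracting the mean of each age, the Pearson correlation of log2 CPM passed an adjusted p of 0.05 (permutation within ages, two-sided, 28 pairs in 8 fits) in 179 of 224 cases, 177 of them positive. Without Scx, 155 of 168 passed; with Scx, 24 of 56. Correlation was common among all genes in some muscles. The share of all gene pairs with an r at least as far from 0 as the weakest of the called pairs was 44.4% in the female and 36.0% in the male diaphragm, 27.1% and 16.5% in gastrocnemius, 6.47% and 7.59% in soleus and 9.70% and 4.95% in tibialis anterior, in each fit with more positive than negative. Beside these stood 24, 26, 15, 24, 28, 21, 20 and 21 of the 28 pairs in the same order. The median r of the 28 pairs was 0.33 to 0.71 by fit, and that of all gene pairs −0.010 to 0.015. Comp and Chad followed each other most closely, at a median r of 0.86 over the 8 fits (0.79 to 0.92), and Thbs4 and Comp at 0.80 (0.61 to 0.89). In the female tibialis anterior, for example, Comp and Chad had r = 0.92 and Spearman rho = 0.91 over 51 libraries (permutation p = 1e-05 for both, the smallest 100000 permutations can give; adjusted p = 2.6e-05), and r = 0.91 without the 2 libraries farthest from the median of Comp. Cilp was tied more loosely, with medians of 0.40 to 0.66 to the other matrix genes and Mkx and Tnmd.

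Scx stood apart from its partners. Its median r was −0.026 with Tnmd and 0.21 with Mkx. The 2 negative calls were Scx with Tnmd in the female diaphragm (r = −0.33, rho = 0.018, permutation p = 0.023 and 0.89, adjusted p = 0.03 and 0.90, r = −0.15 without the 2 libraries farthest from the median of Scx, n = 50) and Scx with Tnc in the female gastrocnemius (r = −0.30, rho = −0.27, permutation p = 0.035 and 0.051, adjusted p = 0.043 and 0.062, r = −0.25 without 2 libraries, n = 52). The former rested on the libraries with a GC trend: without them r was 0.33 and rho 0.44 (permutation p = 0.033 and 0.004, adjusted p = 0.041 and 0.006, n = 46). In the female soleus, which had no such library, Scx was correlated with all of the other 7 genes, at r = 0.38 to 0.56.

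**Figure D5:**
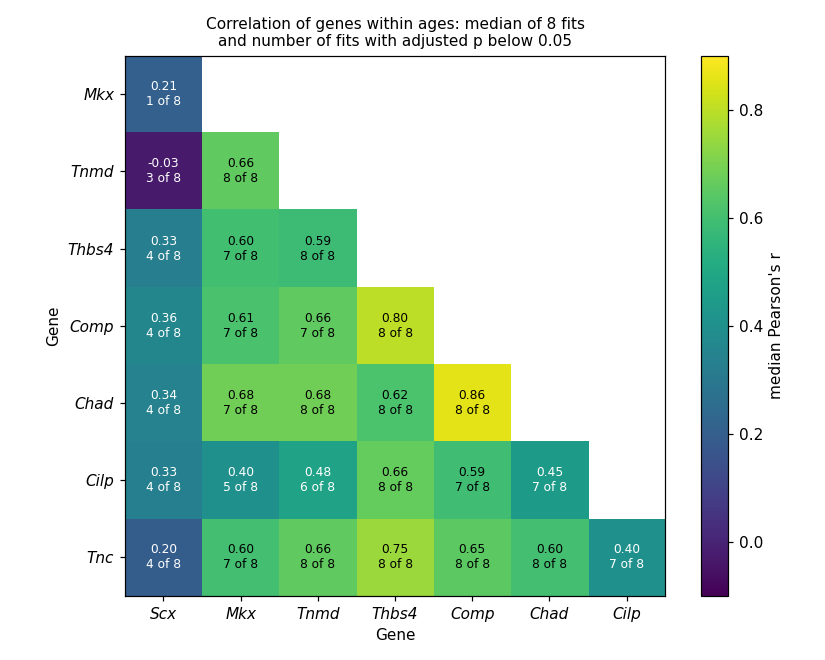
Pearson correlation of log2 CPM between the 8 genes after subtracting age means, for each pair the median over the 8 combinations of muscle and sex and the number of these with an adjusted p below 0.05. Comp and Chad reach 0.86 and Thbs4 and Comp 0.80, while pairs with Scx have medians of −0.026 to 0.36.

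Over all libraries, with the mean of each group subtracted, the genes most like each member were mostly further matrix genes, given here as a description. Fmod, a collagen-binding proteoglycan of tendon, came first for Comp (r = 0.85), Chad (r = 0.83) and Mkx (r = 0.76). Col12a1, a collagen on the surface of fibrils, came first for Tnmd (r = 0.84) and Tnc (r = 0.75). Col11a1 and Itgbl1 followed for Tnmd (r = 0.77 and 0.71), Fmod and Col11a1 for Tnc (0.72 and 0.69), and Ccdc3 and Col12a1 for Mkx (0.71 and 0.70). Comp and Chad each had the other second (0.81), followed by Cilp2 (0.79 and 0.80). Thbs4 had Serpinf1 (0.77), Comp (0.75) and Fmod (0.75). Cilp had Bgn, a small proteoglycan (0.67), Ptgfrn (0.64) and Thbs4 (0.63). Scx had no tendon gene among its 3 (Trp53i13 at 0.79, Yif1b and Zbtb7b at 0.78). The libraries with a GC trend, among them those with very low Scx in diaphragm, were included. These lists were not computed without them.

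Further tendon matrix genes fell more often than they rose. Of 29 further tendon matrix genes, 26 to 28 were tested per fit, and 104 of the 216 slopes fell (48.1%) and 5 rose, with a median of −0.20. Of all slopes over the 8 fits, 9.75% fell and 10.1% rose. Most fell in the female soleus (20 of 27), the male gastrocnemius (19 of 27) and the female gastrocnemius (16 of 27), fewest in the male diaphragm (6 of 26) and the male soleus (7 of 28). Col1a2 and Col1a1, the chains of type I collagen, fell in 8 and 7 of the 8 fits, by −0.27 to −0.69 per doubling of age for Col1a2. Col11a1, a collagen that sets fibril width, fell in 7, and its slopes ran from −0.41 to −0.70.

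The regulators of tendon formation showed no such excess of falls. Of the 128 slopes of 16 tendon regulators (TGF-beta ligands and receptors, Egr and Eya factors, Gdf5, Mstn and others), 30 rose and 16 fell, with a median of 0.027. That is 23.4% rising and 12.5% falling, against 10.1% and 9.75% of the slopes of all genes. Gdf5, a BMP-family ligand of tendon and joint, rose in 7 of the 8 fits, with slopes of 1.33 to 2.26 there, and was at 0.31 ± 0.22 in the female diaphragm (adjusted p = 0.51). Egr2, a zinc-finger factor induced by load, rose in 4 fits and fell in 2, and Tgfbr1, a TGF-beta receptor, rose in 3.

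On the muscle side of the junction more slopes rose than fell, 43 against 23 of 144 over 18 genes, with a median of 0.037. That is 29.9% rising and 16.0% falling, against 10.1% and 9.75% of the slopes of all genes. Ankrd1, a stretch-responsive protein of the fibre, rose in 8 of 8 fits, by 0.54 in the female diaphragm to 1.96 in the male diaphragm. Tln1, the adaptor talin, rose in 6, and Itga7, the laminin-binding integrin of fibres, in 5. Other genes of the list, named after their values were seen, went the other way. Col22a1, a collagen of the junction, fell in 6 fits and rose in 0, with slopes of −0.37 to 0.01. Lama2, a laminin chain around the fibre, fell in 4 and rose in 0, and Tln2, the second talin, fell in 4 and rose in 1. These 3 lists were chosen with earlier results known, so that their counts are a description.

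Some fibroblast markers fell in each muscle and sex, including those in which none of the 8 genes passed. Of 12 such markers (Pdgfra, Dcn, Lum, Col3a1 and others), 11 fell in the female diaphragm, 11 in the female soleus, 7 in the female and 8 in the male gastrocnemius, 3 in the female and 8 in the male tibialis anterior, 8 in the male diaphragm and 4 in the male soleus, 60 of 96 slopes in all. Their summed level went from 1189 to 2190 CPM (median 1813) at 6 months to 678 to 1377 CPM (median 953) at 27 months in the female soleus, and from 845 to 1003 CPM (median 932) to 615 to 979 CPM (median 730) in the male gastrocnemius. In the female diaphragm the medians were 4067 and 2216 CPM, and in the male diaphragm, where none of the 8 genes passed, 3166 and 2134 CPM. In the female gastrocnemius, where Cilp rose, they were 909 and 794 CPM. The part of fibroblast content in the results was not tested. Of the 96 slopes of these markers 62.5% fell, against 9.75% of the slopes of all genes. None of the 12 markers was at 0 in any library.

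Of the markers of cartilage, where 3 of the 8 genes are also made, and of bone, most were low. The cartilage matrix gene Matn1 was at 0 in 372 libraries, and Col2a1 had a median of 0.182 CPM and a highest value of 54.5 CPM. Alpl and Spp1 of the same list were higher, at medians of 16.8 and 2.40 CPM (highest 94.6 and 137 CPM). Each was at 0 in 0 libraries. Of 59 slopes of 13 cartilage and bone markers that could be tested, 16 fell and 4 rose. In the male gastrocnemius 5 of 9 fell, with a summed level of 12.2 to 26.0 CPM (median 17.1) at 6 and 7.66 to 21.7 CPM (median 15.7) at 27 months. Markers of other cell types were tested too. Of the slopes of Schwann cell and nerve markers 8 of 56 fell and 2 rose, and of mesothelial markers 9 of 44 fell and 7 rose. Of adipocyte markers 10 of 56 rose, 5 of those in the female tibialis anterior and 4 in the female gastrocnemius. Of liver markers 12 of 96 rose, 11 of those in the female tibialis anterior. Muscle fibre genes themselves fell in 11 of 64 and rose in 9. Beside these counts, 9.75% of the slopes of all genes fell and 10.1% rose. The part of these cell types in the results was not tested.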

How the data were processed

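The authors deposited 1 table of raw gene counts per library. Total RNA was depleted of ribosomal RNA and sequenced strand-specifically in pairs, and the counts were made in ArrayStudio on mm10 with an in-house RefSeq gene model. Counts carry no normalization; no source used here gives the software version or the strand setting of the counting. The tables hold 25091 rows; for the 329 symbols on more than 1 row, the row with the most counts was kept, and the other 633 rows (0.0335% of counts) were left out.

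The 6 ages of a muscle and sex were fitted together, apart from the other muscles and sex, with edgeR 4.0.16 (quasi-likelihood, TMM, filterByExpr) in R 4.3.3, with Benjamini-Hochberg adjustment over all genes tested. An age was called at an adjusted p of 0.05 and a 1.5-fold change, a slope on log2 age at an adjusted p of 0.05. The SE of a log2 change was its size divided by the square root of its F. Muscles, sexes and interactions came from 1 fit of 48 groups over all libraries. Levels are TMM-scaled CPM; correlations used log2 CPM with a prior count of 0.5. The models were tested on simulated data. Alternatives used DESeq2 1.42.0, limma 3.58.1 and others, and their effects are given at the end. P-values measure the spread between these libraries; libraries of different muscles may share a mouse.

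The 8 genes, the gene lists and the tests were chosen with earlier results of these data known. Named were the 8 genes, per list the 3 genes with the lowest slope p by summed ranks over the fits, and per member the 3 genes with the highest r over all libraries among those that passed filterByExpr. Locations are from GENCODE M21 on mm10. RefSeq promoters on GRCm38.p6 are printed without the transcribed bases.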

Additional observations from a re-analysis of the deposited data

Results flagged for a closer look

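Of 384 groups of libraries tested (8 genes in 48 groups), 41 held 1 library far from the others by Dixon's test, where chance flags about 1 in 20 groups, or 19.2 here. The causes were not tested.

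Of these, 18 came from the 8 libraries with a GC trend. In the female diaphragm, the 6-month replicate 2 was lowest for Scx (0.0376 CPM), Thbs4 (73.5), Comp (0.301) and Chad (1.09 CPM), the 21-month replicate 0 for Scx (0.0462) and Cilp (58.9), and the 24-month replicate 3 for Scx (0.0613 CPM). The 27-month replicate 0 was lowest for Scx (0.0327 CPM) and highest for Tnmd (10.5 CPM). In the male diaphragm, the 6-month replicate 2 was lowest for Scx (0.0262 CPM), Thbs4 (51.5), Comp (0.0786) and Chad (0.76 CPM), and the 27-month replicate 6 for Scx (0.0722 CPM). In gastrocnemius, the female 27-month replicate 0 was highest for Thbs4 (286 CPM) and Comp (37.0 CPM), and the male 12-month replicate 7 for Comp (44.7) and Cilp (123 CPM).

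Some libraries without a GC trend were low for several of the genes. The male diaphragm 18-month replicate 4 was lowest for Chad at 0.0136 CPM, where the others held 11.3 to 24.7 CPM, and for Tnmd (0.803 CPM) and Comp (1.88 CPM). The female gastrocnemius 18-month replicate 1 was lowest for Tnmd (3.13) and Tnc (8.12 CPM), and the male gastrocnemius 27-month replicate 8 for Chad (7.21) and Scx (0.995 CPM).

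The rest were single values. Scx was lowest in the male soleus at 27 months (replicate 2, 0.0886 CPM, the others 2.06 to 5.38 CPM) and 21 months (replicate 0, 0.992), the male diaphragm at 21 months (replicate 1, 0.349) and the female gastrocnemius at 6 months (replicate 1, 1.46 CPM). Tnmd was lowest in the male diaphragm at 12 months (1.81 CPM), the female gastrocnemius at 21 months (3.25) and the male soleus at 24 months (8.83 CPM). Mkx was highest in the male gastrocnemius at 24 months (3.57 CPM) and lowest there at 6 months (2.15 CPM). Thbs4 was lowest in the male gastrocnemius at 24 months (89.9 CPM). Tnc was lowest in the female gastrocnemius at 12 months (9.84 CPM) and highest at 18 months in the female soleus (15.8) and tibialis anterior (22.0 CPM). Cilp was highest in the female gastrocnemius at 6 months (97.3 CPM), the male gastrocnemius at 21 months (152) and the male tibialis anterior at 18 months (115 CPM).

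The change of Cilp from 6 to 27 months differed between the 4 muscles (adjusted p = 4.2e-05, edgeR's F test on 3 degrees of freedom), at 0.87 in gastrocnemius, 0.41 in tibialis anterior, −0.09 in soleus and −0.19 in diaphragm on the log2 scale.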

How the results depend on the processing

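The 25 calls at any older age came to 24 to 27 under another scaling, no filter, limma-voom, DESeq2, the run of sample numbers as a term, and without libraries with a GC trend or liver markers (the last 2 chosen after seeing the data), 19 at an adjusted p of 0.01, 34 without the fold limit, and 6 with Bonferroni adjustment. Leaving out 1 library gave 23 to 26. The 30 slopes came to 29 to 33 under the same alternatives and age in months, 7 with Bonferroni adjustment and 8 from 12 months on; leaving out 1 library gave 28 to 32. From 12 months on, the sign turned without passing the test for Tnc (0.25) and Comp (0.18) in the female diaphragm and for Thbs4 in the female gastrocnemius (0.035). The female gastrocnemius slope of Scx missed in 5 of the other alternatives, and the female gastrocnemius slope of Thbs4 in 2. These counts leave out age in months. With age in months, 2 of the 8 genes fell in the female gastrocnemius (4 on log2 age) and 6 in the female soleus (5 on log2 age). Of all genes, 17.8% fell in the female gastrocnemius with age in months (16.1% on log2 age) and 14.9% in the female soleus (15.1%). Of the 34 slopes that did not pass, 15 changed sign under at least 1 alternative.

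The 30 muscle contrasts, the 3 sex contrasts and the 1 muscle by age call stayed within 1.5 times their counts. The sex by age count was 0 in each alternative but the one without libraries with a GC trend, where it was 1 (Thbs4 in soleus). The 179 correlations came to 166 to 180.

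Replicate numbers were shared between groups, but same-numbered libraries did not deviate together (mean r of −0.040 to 0.074). With the replicate block, 25 calls at any age and 30 slopes passed, with 30 muscle, 4 sex, 0 sex by age and 1 muscle by age contrasts. At any age, 4 genes passed in the female diaphragm (6 without the block), 5 in the female soleus (4) and 4 in the male gastrocnemius (3). Of all genes, 2.02%, 8.5% and 7.64% passed there with the block, in the same order (2.95%, 8.52% and 8.06% without it). The block changed the slope call of Scx in the gastrocnemius of both sexes (adjusted p of 0.10 in females and 0.027 in males).

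Scx had a median of 88 to 313 counts per muscle and as few as 1 in a library, and Mkx a median of 98.5 to 424 and as few as 34. In diaphragm, Chad had a median of 1054 counts and as few as 1, and Comp a median of 574 and as few as 3.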
